A study of Malus hupehensis with 9 samples.

Results

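The genes described here formed a ladder between 3 apple rootstocks: their level in the mutant A1d lay between the level in the columnar hybrid QZ1 and the level in the wild type (WT). They were chosen by their measured levels. With x written for log2(FPKM + 1), where FPKM is the number of sequenced fragments per kilobase of gene, scaled to the size of the library, A1d replicates 2 and 3 had to lie strictly between every QZ1 and every WT value. The mean of x also had to move by at least 0.8 log2 units between WT and A1d and by at least 0.8 further, in the same direction, between A1d and QZ1. A1d replicate 1 had no part in the choice. Of 39951 gene identifiers in the deposited file, 219 on chromosome 10 were left out by the rule, and 253 of the other 39732 met it. In 116 of them QZ1 was highest (0.292% of the 39732 identifiers), called rising genes here, and in 137 QZ1 was lowest (0.345%), called falling genes. Since the rule fixed their order and the size of both steps, the levels below are a description and carry no test.

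QZ1 is a hybrid of columnar habit, with Malus hupehensis Rehd. as mother and the columnar apple line CO (Malus × domestica) as father. A1d is a mutant derived from M. hupehensis that responds only in part to gibberellin, and WT is M. hupehensis itself, labelled PYTC. All libraries were made from polyadenylated RNA of phloem taken at bud break, 3 per rootstock. The labels give neither the gene altered in A1d nor the number of lines or clones behind a rootstock, and the design text speaks of "tree replicates", which may mean separate trees or be a slip for the number of replicates, so the spread between them may be technical. QZ1 differs from WT both in habit and in having a father of another species, and these cannot be told apart with the rootstocks at hand.

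Gibberellins are growth hormones that promote stem elongation. They act through the receptor GID1, which on binding the hormone leads to the breakdown of DELLA proteins, the repressors of growth, so a plant that responds poorly to gibberellin is usually short and dark green. Columnar apple trees have a thick upright stem, short internodes and few long side branches, a habit that plant breeders use for dense planting. Phloem carries sugars and signals along the stem, and in spring it resumes transport while the neighbouring cambium starts to divide. The deposited file gives identifiers without names, so neither a role nor a pathway is stated for any gene here, and the tissue label could not be set against phloem, xylem or bark markers. In bulk tissue, fewer cells of a type and less RNA per cell cannot be told apart.

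Library totals, worked out from the steps between FPKM values, were 17853477 to 17970988 reads in QZ1, 15684510 to 18022986 in A1d and 16615625 to 16860711 in WT. A1d replicate 1 stood apart: it listed 18107 identifiers at 0, against 7183 to 9029 in the other libraries. The reads behind the graded genes are given as sums over 3 libraries for QZ1 and WT and 2 for A1d, so they are not on 1 scale. Their order largely follows from the rule. A rising gene had a median of 887 reads over the QZ1 libraries (lowest 82), 211.5 over A1d replicates 2 and 3 (lowest 14) and 51.5 over the WT libraries. A falling gene had a median of 100 reads over the QZ1 libraries, 232 over A1d replicates 2 and 3 (lowest 5) and 862 over the WT libraries (lowest 38). Only 1 rising and 4 falling genes had under 20 reads in A1d replicates 2 and 3 together.

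The rising genes had similar levels in every QZ1 library, with medians of 13.6, 13.7 and 13.2 FPKM. In A1d the medians were 3.66 FPKM in replicate 1, 3.44 in replicate 2 and 4.82 in replicate 3, and in WT they were 0.880, 0.961 and 0.737 FPKM. The middle gene of the rising set was thus under 1 FPKM in every WT library and over 13 FPKM in every QZ1 library. The like medians of the A1d libraries do not mean like values gene by gene. A1d replicate 1 listed 33 rising genes at 0, and A1d replicates 2 and 3 listed 0. Summed over rising genes, A1d replicate 1 had 1995 FPKM, under every WT library (2399 to 2663 FPKM). The falling genes had medians of 1.45, 2.13 and 1.37 FPKM in QZ1. Their medians were 4.91, 5.88 and 6.59 FPKM in A1d, and 13.3, 18.8 and 18.1 FPKM in WT, so WT replicate 1 was the lowest WT library. Averaged over the 8 libraries, 45 rising genes were under 5 FPKM, 43 between 5 and 20, 20 between 20 and 100, and 8 over 100 FPKM. Among falling genes these classes held 45, 58, 31 and 3, so the falling set had fewer genes at the top of the scale.

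**Figure D1:**
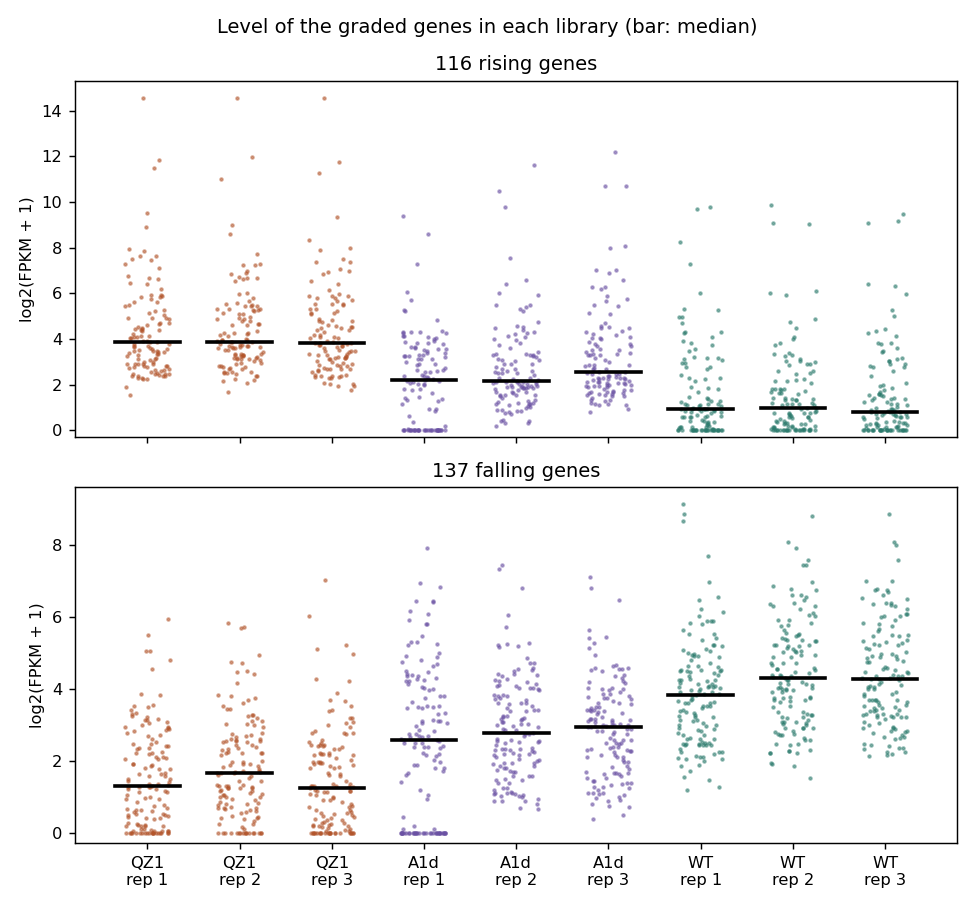
Each point is 1 graded gene in 1 library, on the log2(FPKM + 1) scale, for the 116 rising genes (upper panel) and the 137 falling genes (lower panel); the black bars are medians over genes. The medians of rising genes step down between QZ1, A1d and WT, those of falling genes step up, and A1d replicate 1 has a row of genes at 0 in both panels.

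The steps on both sides of A1d were of like size in these genes, which the rule's minimum of 0.8 for each step favours. Across rising genes the mean x of QZ1 lay a median of 2.69 log2 units above that of WT (1.65 to 5.43). Of this, the step between QZ1 and A1d had a median of 1.26 (0.80 to 3.33) and the step between A1d and WT 1.27 (0.81 to 3.72). Across falling genes the difference of QZ1 from WT had a median of -2.47 (-5.12 to -1.67), with -1.14 between QZ1 and A1d and -1.22 between A1d and WT. Setting the WT mean at 0% and the QZ1 mean at 100%, the A1d mean of replicates 2 and 3 stood at a median of 49.8% in rising genes (quartiles 43.9 and 56.2%) and 52.2% in falling genes (44.5 and 58.2%). It stood between 40 and 60% in 73 of 116 rising and 84 of 137 falling genes. Since each step had to be at least 0.8, the rule kept the A1d mean away from both ends, so this place is partly set by the choice. Whatever A1d did, 955 genes had QZ1 above WT without overlap and by at least 1.6 log2 units. There the A1d mean stood at a median of 38.5%. In the 1028 genes with QZ1 below WT in the same way it stood at 54.9%. The middle place holds only on the log scale. In FPKM without logarithms the A1d mean stood at a median of 31.2% of the way in rising genes and 72.7% in falling genes, nearer to the rootstock with the lower level in both sets.

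**Figure D2:**
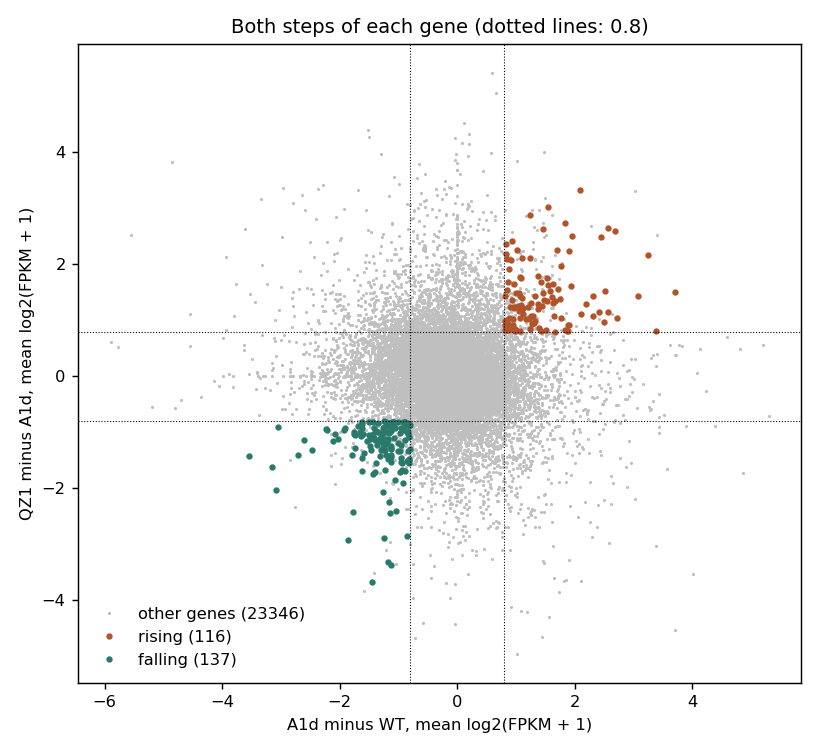
Mean differences in log2(FPKM + 1) between A1d and WT (x axis) and between QZ1 and A1d (y axis), A1d being the mean of replicates 2 and 3, for the 253 graded genes (coloured) and the other genes high enough to meet the rule (grey). The dotted lines at 0.8 are the rule's threshold, so the coloured points fill 2 corners by construction; grey points in the same corners failed the condition that libraries do not overlap.

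The largest differences between QZ1 and WT among rising genes were those of MD01G1051700 and MD00G1005700. MD01G1051700 had 44.2, 37.1 and 45.2 FPKM in QZ1, 1.5, 0.257 and 13.6 FPKM in A1d replicates 1, 2 and 3, and no read in any WT library. Its QZ1 libraries lay close together, whereas A1d replicate 3 was far above A1d replicate 2. Taking a floor of 3 reads summed over the WT libraries, QZ1 was at least 1080-fold higher than WT in this gene. This bound covers counting error only. MD00G1005700 had 725, 391 and 641 FPKM in QZ1, 18.4, 62.9 and 252 FPKM in A1d replicates 1, 2 and 3, and 18.5, 8.93 and 11.1 FPKM in WT. The 2 A1d replicates that entered the rule were apart by 1.98 log2 units in this gene and A1d replicate 1 lay among the WT values.

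The most abundant rising gene was MD15G1253900. It had 24465, 24019 and 24202 FPKM in QZ1, and 676, 3161 and 4689 FPKM in A1d replicates 1, 2 and 3. In WT it had 869, 544 and 582 FPKM. MD15G1253900 ranked first of all genes in every QZ1 library, where it took 1.376 to 1.402% of the reads. It ranked 26, 7 and 4 in A1d replicates 1, 2 and 3 and 34, 51 and 43 in WT replicates 1, 2 and 3. On average it had 24229 ± 225 FPKM in QZ1 (SD, n = 3), 3925 ± 1080.5 in A1d (SD, n = 2) and 665 ± 178 in WT (SD, n = 3), and the steps were 2.65 log2 units between QZ1 and A1d and 2.56 between A1d and WT. A1d replicate 1 lay within the WT range.

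Second in abundance was MD04G1128900, with 3627, 4018 and 2489 FPKM in QZ1. In A1d replicates 1, 2 and 3 it had 157, 877 and 1690.4 FPKM, and in WT 305, 518 and 716 FPKM. A1d replicate 1 was the lowest of all 9 libraries in this gene, under every WT value.

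The rising genes with the most equal steps were MD02G1084000 and MD12G1078100. MD02G1084000 had 72.5, 99.1 and 54.1 FPKM in QZ1, 38.2 and 42.0 FPKM in A1d replicates 2 and 3, and 30.3, 16.2 and 20.7 FPKM in WT, with steps of 0.85 log2 units on both sides. A1d replicate 1, at 10.9 FPKM, lay under all WT values. MD12G1078100 had 9.08, 8.10 and 9.08 FPKM in QZ1, 2.35 and 1.90 FPKM in A1d replicates 2 and 3, and no read in WT or in A1d replicate 1. Its steps were 1.64 log2 units on both sides.

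For falling genes the largest differences between QZ1 and WT were those of MD13G1071600 and MD04G1241000. MD13G1071600 had 3.12, 0.819 and 1.99 FPKM in QZ1, 17.5, 13.3 and 8.34 FPKM in A1d replicates 1, 2 and 3, and 13.5, 240.0 and 267 FPKM in WT. The gene met the rule by a narrow margin, since WT replicate 1 was barely above A1d replicate 2 and far from the other WT libraries. MD04G1241000 was tighter, with 0.392, 0.316 and 0.195 FPKM in QZ1, 7.84, 15.8 and 15.2 FPKM in A1d replicates 1, 2 and 3, and 55.6, 44.4 and 34.0 FPKM in WT. Here all 3 A1d libraries lay between QZ1 and WT, and the step between QZ1 and A1d (-3.67 log2 units) was the largest of any falling gene.

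MD05G1198300 and MD09G1209500 were the most abundant falling genes. MD05G1198300 had 60.5, 50.6 and 130.1 FPKM in QZ1, 239, 171 and 137 FPKM in A1d replicates 1, 2 and 3, and 408, 442 and 461 FPKM in WT. The WT libraries stood well clear of the rest, while QZ1 replicate 3 came close to A1d replicate 3. MD09G1209500 had 43.8, 51.3 and 64.5 FPKM in QZ1, 121, 159 and 109 FPKM in A1d replicates 1, 2 and 3, and 563, 271 and 192 FPKM in WT. All 3 A1d libraries lay between the other rootstocks in both genes.

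The most equal steps among falling genes were those of MD06G1182400 and MD05G1296700. MD06G1182400 had 6.94, 9.92 and 5.85 FPKM in QZ1, 29.1, 21.3 and 17.4 FPKM in A1d replicates 1, 2 and 3, and 54.9, 33.3 and 59.1 FPKM in WT. Both steps were -1.27 log2 units, and A1d replicate 1 also lay between the other rootstocks. MD05G1296700 had 4.26, 5.47 and 5.77 FPKM in QZ1, 18.1, 11.8 and 9.62 FPKM in A1d replicates 1, 2 and 3, and 29.1, 16.2 and 19.6 FPKM in WT. In that gene A1d replicate 1 fell within the WT range.

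**Figure D3:**
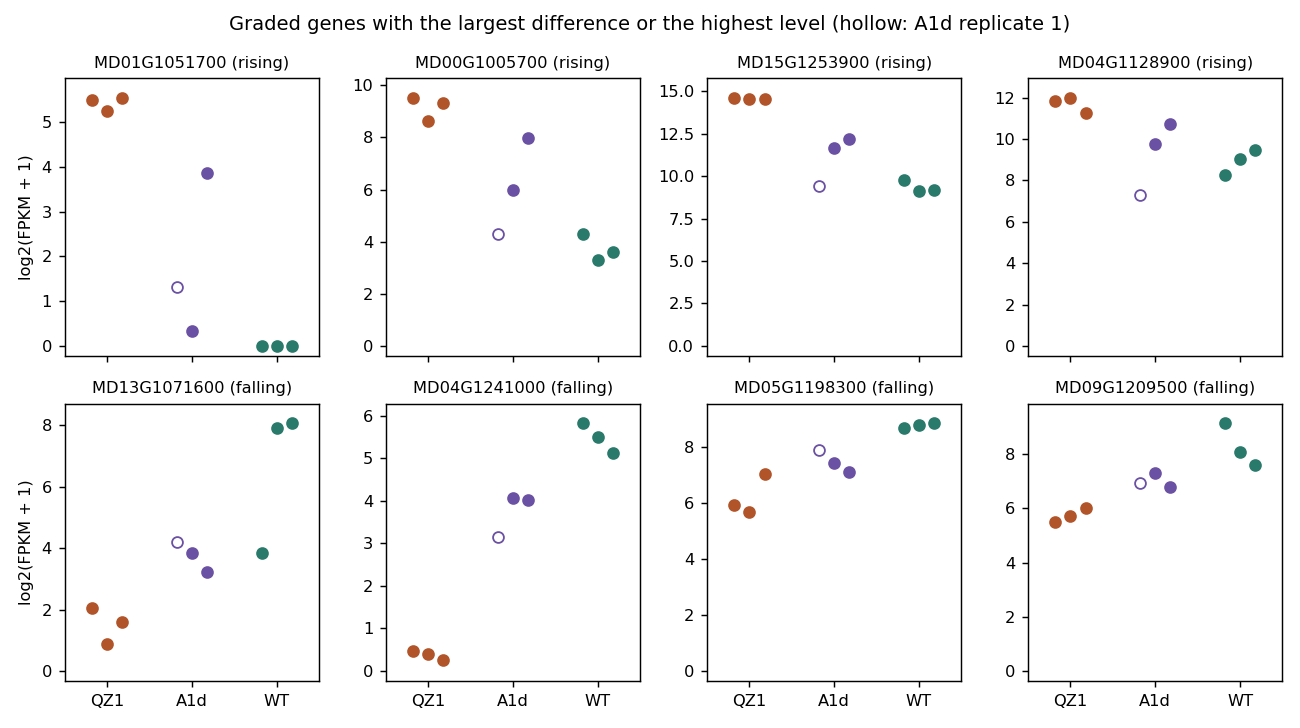
Levels of 8 graded genes in all 9 libraries on the log2(FPKM + 1) scale, 1 point per library, with QZ1 left, A1d in the middle and WT right; the hollow point is A1d replicate 1, which the rule did not use. In MD15G1253900 the QZ1 points coincide at 24019 to 24465 FPKM, and in MD13G1071600 the WT points are split between 13.5 and 267 FPKM.

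Some graded genes had no read at 1 end of the ladder. No read was seen in any WT library for 14 rising genes, all of which had reads in A1d replicates 2 and 3. MD05G1211900 had the fewest there, 8 in replicate 2 and 6 in replicate 3, and MD01G1051700 the most, 7 in replicate 2 and 376 in replicate 3. By the same floor QZ1 was at least 54.8-fold higher in MD05G1211900, the smallest of these bounds. In 10 falling genes no QZ1 library had a read. The floor was then 3 reads summed over the QZ1 libraries, and the bounds ran between at least 13.6-fold lower in QZ1 for MD13G1272900, which had 38 reads in WT and 2 and 3 in A1d replicates 2 and 3, and at least 286-fold lower for MD02G1306500, with 800 reads in WT and 129 and 103 in A1d replicates 2 and 3. A read count of 0 limits the level and does not show that a gene is off, and the floors cover counting error only. The genome build is not given. Whether reads of the rootstocks were matched to it equally well was not tested. MD05G1211900, MD13G1272900 and MD02G1306500 are named as the ends of these ranges, chosen after their values were seen.

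The 2 A1d libraries behind the rule did not hold the same place. In rising genes A1d replicate 2 stood at a median of 40.6% of the way between WT and QZ1 and A1d replicate 3 at 61.7%, and replicate 3 was the nearer to QZ1 in 85 of 116 genes. The same lean was seen beyond the graded genes. Among all 955 genes whose QZ1 values lay above their WT values with means at least 1.6 log2 units apart, whatever A1d did, replicate 3 was nearer QZ1 in 69.1%, and the medians were 15.5% for replicate 2 and 60.4% for replicate 3. In falling genes the replicates stood closer, at 49.7% and 54.2%, and replicate 3 was nearer QZ1 in 75 of 137. Of the 1028 genes with QZ1 below WT by at least 1.6, replicate 3 was nearer QZ1 in 44.5%. Taken alone, A1d replicate 2 was at least 0.8 log2 units from both means in 67 rising and 92 falling genes, and A1d replicate 3 in 68 and 96.

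Spread inside a rootstock was set against the steps. The range of x within a group had medians of 0.46 log2 units in QZ1, 0.66 in A1d replicates 2 and 3 and 0.45 in WT over rising genes, and 0.69 in QZ1, 0.37 in A1d and 0.92 in WT over falling genes. Over the 23599 genes high enough to meet the rule these medians were 0.38 in QZ1, 0.23 in A1d and 0.55 in WT. An A1d range covers 2 libraries and a QZ1 or WT range 3. A range over fewer libraries tends to be narrower, so A1d cannot be called the less variable rootstock from these values. Both steps exceeded the widest of the 3 ranges in 73 of 116 rising genes and in 56 of 137 falling genes. The empty gap between neighbouring groups was wider than that range on both sides in 27 rising and 12 falling genes, so in most graded genes at least 1 gap was narrower than the widest range within a group.

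WT replicate 1 was the WT library nearest A1d in 93 of 137 falling genes (67.9%), and in 66.6% of the 1028 genes with QZ1 below WT by at least 1.6. In rising genes it was nearest in 40 of 116, against 34 for WT replicate 2 and 28 for WT replicate 3, with ties in the 14 genes at 0 in WT. Over the 955 genes with QZ1 above WT by at least 1.6, these shares were 30.7, 28.6 and 20.7%. At the other end, QZ1 replicate 2 was the QZ1 library nearest A1d in 63 of 137 falling genes (46.0%). In the 1028 genes it was nearest in 44.2%. No QZ1 library led in rising genes, with 41, 39 and 36 for replicates 1, 2 and 3. Over the 955 genes these shares were 37.0, 39.2 and 23.9%. The number of falling genes depended on WT replicate 1: without it 309 genes met the rule, 126 of them among the 137. The number of rising genes was 179 without A1d replicate 2, of which 68 were among the 116, and 128 without A1d replicate 3, of which 67 were.

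**Figure D4:**
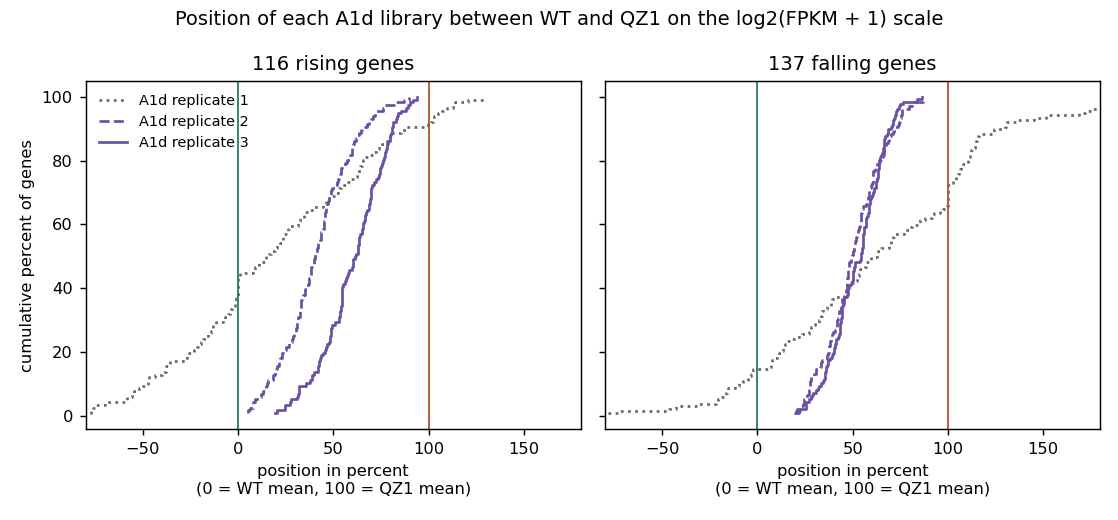
Cumulative percent of rising (left) and falling (right) graded genes by the position of each A1d library on the log2(FPKM + 1) scale, where 0 is the WT mean and 100 the QZ1 mean; the x axis leaves out the most extreme values of replicate 1. The curves of A1d replicates 2 and 3 must lie between the lines by the rule, with replicate 3 to the right of replicate 2 in rising genes (medians 61.7 and 40.6%), while A1d replicate 1 spreads past both ends.

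A1d replicate 1 is the library the rule did not use, and it is also the one with the most genes at 0. In rising genes it lay between all QZ1 and all WT values in 48 of 116 (41.4%), within the WT range in 25, under all WT values in 30, within the QZ1 range in 7 and above all QZ1 values in 6. Among the 839 genes with QZ1 above WT by at least 1.6 that were not graded, it lay between in 153 (18.2%). It listed 33 graded rising genes at 0 (28.4%), against 453 (54.0%) of those 839, and the graded genes were also the more abundant, with a median over the 8 libraries of 6.64 against 3.98 FPKM. Counting only genes above 0 in A1d replicate 1, it lay between in 48 of 83 (57.8%) rising genes and in 153 of 386 (39.6%) of the others.

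In falling genes A1d replicate 1 lay between in 46 of 137 (33.6%), within the QZ1 range in 37, under all QZ1 values in 20, within the WT range in 23 and above all WT values in 11. Of 891 other genes with QZ1 below WT by at least 1.6, it lay between in 146 (16.4%). It listed 38 of the falling genes at 0 (27.7%) and 324 (36.4%) of the 891, whose medians over the 8 libraries were 8.96 and 5.31 FPKM. Among genes above 0 in that library the shares were 46 of 99 (46.5%) and 146 of 567 (25.7%). All of these shares rest on 1 library, so no test was made, and the part of its zeros in them was not tested. As in rising genes, the choice may have left graded genes a wider space between QZ1 and WT than the others. When A1d replicate 1 was added to the A1d libraries under the same rule, 49 genes were rising and 50 falling, and 42 of the 116 and 44 of the 137 were among them.

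The genes in which A1d replicate 1 lay farthest outside the range of the other rootstocks were all listed at 0 there. MD07G1250000, a rising gene, had 48.1, 61.1 and 51.7 FPKM in QZ1, 0, 6.55 and 44.0 FPKM in A1d replicates 1, 2 and 3, and 5.92, 5.13 and 3.19 FPKM in WT. Its A1d libraries thus spanned nearly the whole way between the other rootstocks and past WT. MD05G1146300 was similar, at 10.1, 7.92 and 8.10 FPKM in QZ1, 0, 1.95 and 7.90 FPKM in A1d, and 1.69, 1.52 and 1.70 FPKM in WT. In both genes A1d replicate 2 was near WT and A1d replicate 3 near QZ1. Among falling genes, MD08G1185900 had 4.56, 20.4 and 18.1 FPKM in QZ1, 0, 22.6 and 22.6 FPKM in A1d, and 29.9, 116 and 106 FPKM in WT. MD11G1136200 had 6.42, 12.9 and 4.19 FPKM in QZ1, 0, 16.0 and 13.0 FPKM in A1d, and 41.8, 54.1 and 28.8 FPKM in WT. In these the other A1d libraries stood just above the highest QZ1 library.

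Some members lay close to the threshold. Just inside, the smaller step was 0.801 log2 units in MD06G1092400 and 0.806 in MD09G1143800 (rising), and 0.803 in MD07G1268200 and 0.806 in MD03G1173300 (falling). Just outside, with every other condition met, it was 0.7998 in MD15G1112600 and 0.796 in MD11G1077100 (rising), and 0.7995 in MD07G1022200 and 0.794 in MD05G1359600 (falling). MD09G1143800, for example, had 2865, 2060.4 and 3452 FPKM in QZ1, 1447 and 1686 FPKM in A1d replicates 2 and 3, and 842, 926 and 534 FPKM in WT. MD07G1022200, left out, had 23.3, 20.004 and 24.3 FPKM in QZ1, 40.8 and 39.0 FPKM in A1d replicates 2 and 3, and 69.0, 80.9 and 66.7 FPKM in WT, and its groups were separate too. With no minimum step, 822 genes were in rising order and 966 in falling order without overlap.

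Other orders of the rootstocks were met by fewer genes under the same rule and the same 8 libraries. WT lay in the middle in 66 genes, of which 24 had QZ1 highest and 42 had QZ1 lowest. QZ1 lay in the middle in 47 genes, 26 with A1d highest and 21 with A1d lowest. A1d in the middle, with 253 genes, was the most frequent of the 3 orders. Every order uses the same libraries of each rootstock, so the counts are not independent of each other. Nor are they on equal terms: A1d in the middle had to fit 2 libraries, whereas WT or QZ1 in the middle had to fit 3. With A1d replicate 1 included, A1d in the middle was met by 49 rising and 50 falling genes, and the other orders were not counted that way.

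Across the whole table, limma was fitted to x for 26510 genes with all 9 libraries, calling a gene at a Benjamini-Hochberg adjusted p under 0.05. All 253 graded genes were among those tested. Since the rule used the same contrasts, the counts of graded genes called are given beside the share of all tested genes, and nothing is read from them. For QZ1 against WT, 104 of 116 rising genes were called higher (5.05% of all tested) and 125 of 137 falling genes lower (5.19%). For QZ1 against A1d, 35 rising genes were called higher (2.5% of all tested) and 16 falling genes lower (1.79%). In the comparison of A1d with WT 26 rising genes were called higher (1.4%) and 21 falling genes lower (1.67%). Both single steps were called in 12 rising genes (0.0453% of all tested genes were called higher in both) and 4 falling genes (0.0151% were called lower in both). No other tested gene was called in both steps in the same direction, so these shares consist of graded genes and are no separate background. Neither step was called in 67 rising and 104 falling genes, nor in 93.2% of all tested genes. In this test A1d replicate 1 counts as an A1d library. Without A1d replicate 1, more genes were called in the whole table as well. For QZ1 against WT, 116 rising genes were then called higher (11.1% of all tested) and 136 falling genes lower (13.3%). Between QZ1 and A1d 38 rising genes were called higher (2.79%) and 28 falling genes lower (2.51%), and between A1d and WT 48 rising genes higher (2.54%) and 28 falling genes lower (2.32%). Each of the 9 libraries, when left out, moved at least 1 of these counts by over 1.5 times.

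Position along the genome was not part of the rule. The file gives none, so it was taken from the identifiers. They look like those of the apple genome GDDH13, in which the digits after MD number the chromosome and those after G follow gene order, though no source used here states this. Rising genes were found on every chromosome, with the most on chromosome 12, which held 15 of 116 (12.9%). That chromosome holds 5.05% of the genes high enough to meet the rule and 5.65% of the 955 genes with QZ1 above WT by at least 1.6. Falling genes were most frequent on chromosome 13, with 15 of 137 (10.9%), against 5.6% of the genes and 6.61% of the 1028. Chromosome 13 held 1 rising gene. The chromosomes were picked for their counts, and no test was made of these shares.

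A few graded genes stood next to each other. Taking genes within 5 positions of each other among those high enough to meet the rule, 19 rising genes fell into 8 groups and 15 falling genes into 7. The largest was a run of 4 consecutive rising genes on chromosome 12, MD12G1171000 to MD12G1171300, with gene lengths of 657, 689, 564 and 618 bases. MD12G1171000 had 29.7, 36.8 and 26.1 FPKM in QZ1, 0, 3.33 and 6.25 FPKM in A1d replicates 1, 2 and 3, and 0.0903, 0 and 0 FPKM in WT. MD12G1171100 had 12.0, 12.4 and 11.1 FPKM in QZ1, 0, 3.01 and 2.98 FPKM in A1d, and 0.0861, 0.961 and 0.519 FPKM in WT. In both, A1d replicate 1 was at 0.

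MD12G1171200 had 25.1, 39.3 and 34.3 FPKM in QZ1, 3.05, 4.97 and 3.84 FPKM in A1d replicates 1, 2 and 3, and 1.16, 0.960 and 0.740 FPKM in WT. MD12G1171300 had 31.9, 43.0 and 27.0 FPKM in QZ1, 18.98, 8.99 and 5.39 FPKM in A1d, and 3.93, 1.66 and 2.89 FPKM in WT. In these 2 genes of the run all 3 A1d libraries lay between the other rootstocks. The genes of the run are of like length and adjacent, and copies that resemble each other could share reads in the counting, so they are not independent observations. A second rising group, on chromosome 1, joined MD01G1051700 with MD01G1052800 and MD01G1053100 across 7 positions.

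The largest falling group lay on chromosome 2, with MD02G1111800, MD02G1111900 and MD02G1112100 within 4 positions. MD02G1111800 had 3.29, 2.96 and 1.25 FPKM in QZ1, 113, 13.0 and 22.4 FPKM in A1d replicates 1, 2 and 3, and 28.7, 82.7 and 96.1 FPKM in WT. MD02G1111900 had 0, 2.20 and 0.116 FPKM in QZ1, 70.0, 9.58 and 11.7 FPKM in A1d, and 23.8, 44.5 and 63.6 FPKM in WT. In both genes A1d replicate 1 was above every WT library and so outside the ladder. MD02G1112100 had 0.904, 0.615 and 0.189 FPKM in QZ1, 2.65, 2.62 and 2.64 FPKM in A1d, and 3.28, 8.28 and 11.4 FPKM in WT, with all A1d libraries in place. The other falling groups were pairs, 2 of them on chromosome 13: MD13G1146200 with MD13G1146400, and MD13G1215100 with MD13G1215200.

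Neighbours that were not graded themselves were compared next. The rule had been applied to them too, and 8 of 217 nearest neighbours of rising genes and 14 of 269 of falling genes were left out as graded, whereas the shares over all genes given beside them include graded genes. A neighbour was counted when its QZ1 and WT values did not overlap and their means were at least 0.8 log2 units apart. Beside rising genes 37 of 209 nearest neighbours (17.7%) were higher in QZ1 in this sense, against 9.47% of the 22871 genes high enough to meet the rule on numbered chromosomes. Lower in QZ1 were 21 of the 209 (10.05%), against 12.1% of the 22871. Beside falling genes 58 of 255 neighbours (22.7%) were lower in QZ1, against 12.1%, and 20 (7.84%) were higher, against 9.47%. The lean was in the direction of the graded gene at the nearest position. At 2 to 5 positions the shares were 10.5% higher in QZ1 beside rising genes and 13.2% lower in QZ1 beside falling genes, and at 6 to 10 positions 10.3 and 10.5%.

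Under other settings the shares beside graded genes moved, and so did the shares over all genes. The settings were another pseudocount, 3 other scalings and each QZ1 or WT library left out. Beside rising genes the shares were 16.7 to 19.1%, against 9.5 to 11.2% of all genes. Beside falling genes they were 20.4 to 26.3%, against 10.6 to 18.3% of all genes. The highest, 26.3% without WT replicate 1, stood beside 18.3% of all genes. Overlapping or similar neighbours can share reads in the counting, and whether that plays a part in these shares was not tested.

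**Figure D5:**
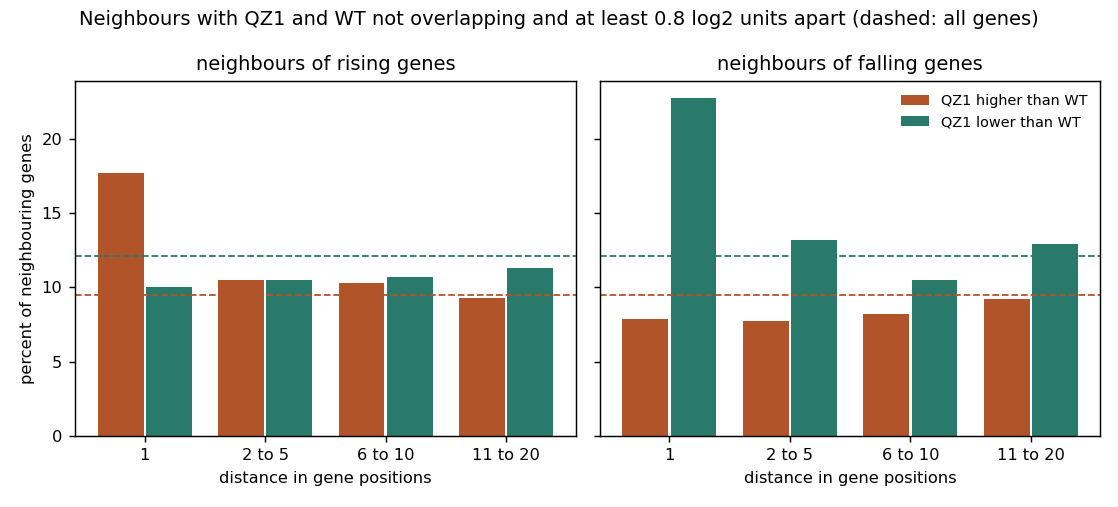
Percent of neighbouring genes, not graded themselves, whose QZ1 and WT values did not overlap with means at least 0.8 log2 units apart, by distance along the chromosome from rising (left) and falling (right) graded genes. Dashed lines give the same share over all 22871 genes (9.47% higher and 12.1% lower in QZ1); the nearest neighbours are at 17.7% higher beside rising and 22.7% lower beside falling genes.

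Graded genes were shorter by their medians, though not gene by gene: quartile 3 was 1937 bases in rising and 1557 bases in falling genes. Lengths worked out from the FPKM steps had a median of 1234.5 bases in rising genes (229 to 4527) and 1126 bases in falling genes (132 to 4685), against 1560 bases over the genes high enough to meet the rule. The non-graded genes with QZ1 and WT at least 1.6 apart were short as well, with medians of 1166 bases where QZ1 was higher and 1159 bases where it was lower.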

How the data were processed

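RNA sequencing of phloem gave 9 libraries, 3 each of QZ1, A1d and WT. Per the labels' protocols, the mirVana kit served for RNA extraction and the TruSeq Stranded mRNA kit for the libraries. Trimmomatic, which trims reads, appears without a version in the submitters' processing notes. Not given in the sources used here are the aligner, counter, genome build, annotation and strand setting, so near-identical or overlapping genes may share reads. The authors deposited FPKM values, and the unit is taken from the name of the deposited table. Columns were matched to samples by their descriptions or titles.

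Whole reads, library totals and gene lengths were computed from the FPKM steps: 37548 of 37548 genes above 0 came out whole within 0.0001 reads. This step was tested on simulated data. A read may stand for a read pair. Floors were 3 reads and cover counting error only, since PCR reads are not independent molecules.

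Values were used as log2(FPKM + 1), a scale that understates changes of low genes. Differences use A1d replicates 2 and 3. limma 3.58.1 in R 4.3.3 was fitted to genes with FPKM of at least 1 in at least 3 of 9 libraries, with empirical Bayes, an intensity trend and adjustment within each contrast, and was tested on simulated data. The labels do not state that the replicate numbers pair samples. Deviations of libraries with the same number had r of -0.178 to 0.042, against -0.05 to 0.211 for different numbers. These values cannot exclude a pairing, since each group has only 3 libraries. Python 3.11.15 with pandas 2.3.3 and matplotlib 3.10.9 made the other values.

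The members, the rule and the lists were chosen with earlier results of these data known. Named genes are 2 rising and 2 falling per property: the largest difference between QZ1 and WT, the highest mean FPKM, the most equal steps, those just inside and outside the threshold, the largest neighbour groups, and A1d replicate 1 farthest outside. Gene lists, tissue markers and promoter motifs need gene names or sequences and were not used here. Alternatives were another pseudocount, other scalings, filters and step sizes, A1d replicate 1 included, each library left out, the replicate block and voom.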

Additional observations from a re-analysis of the deposited data

How the results depend on the processing

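The number of rising genes (116) became 254 with a pseudocount of 0.1, 49 with A1d replicate 1 included, 240 with steps of at least 0.6 and 66 with steps of at least 1. Leaving out 1 library gave 125 to 179, the highest without A1d replicate 2. The number of falling genes (137) became 302, 50, 265 and 69 under the same 4 settings. It was 132 to 309 when 1 library was left out, the highest without WT replicate 1, and 334 when A1d replicate 3 and WT replicate 1 were both left out, a setting chosen after seeing the data. The median A1d position of falling genes (52.2%) was 43.8% with a pseudocount of 0.1, 48.7% under quantile normalization and 49.7 to 54.7% with 1 library left out. That of rising genes (49.8%) was 40.6% without A1d replicate 3, 61.7% without A1d replicate 2 and 36.9% with A1d replicate 1 included. These moves were within the spread they were set against, but that spread came from the same 2 A1d replicates. Leaving out either of them could hardly exceed it, so the median of rising genes is not shown to be stable.

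Counts of graded genes called by limma are given below, and nothing is read from them. Brackets hold the share of all tested genes called in the same direction under that setting. For 1 library left out, they hold the lowest and the highest share over these settings. These shares need not come from the same settings as the lowest and the highest count. For A1d against WT, rising genes called (26) were 14 without a filter (0.754%) and 9 with voom (0.66%), and 5 to 48 with 1 library left out (0.406 to 2.54%). Falling genes (21) were 4 with a pseudocount of 0.1 (0.935%), 11 without a filter (1.21%) and 8 with voom (0.732%), and 3 to 29 with 1 library left out (0.204 to 2.32%). For QZ1 against A1d, rising genes (35) were 10 with a pseudocount of 0.1 (1.39%), 21 without a filter (1.94%) and 22 with voom (1.34%), and 5 to 63 with 1 library left out (0.231 to 4.23%). Falling genes (16) were 5 with voom (0.905%), and 1 to 28 with 1 library left out (0.288 to 2.51%). For QZ1 against WT, rising genes (104) were 67 to 116 with 1 library left out (1.23 to 11.1%). Falling genes (125) were 75 with voom (3.01%), and 71 to 136 with 1 library left out (1.41 to 13.3%). With the replicate block, 11 rising (0.683%) and 12 falling genes (0.902%) were called for A1d against WT, and 17 (1.31%) and 7 (0.868%) for QZ1 against A1d. Whether the numbers pair samples is not known, so this is no measure of effect. The causes were not tested.

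Under the alternatives 113 values stayed within the spread between replicates, for counts within 1.5 times and for shares of neighbours within their counting interval. Outside these limits were 49 lower counts, 10 higher counts and 2 medians. The 113 include the shares of neighbours and the places of A1d replicate 1. Some of the 113 had no room to move. Another pseudocount keeps the order of the libraries, and a gene at 0 in A1d replicate 1 can never lie between. The counts of genes with that library between (48 and 46) were thus fixed under another pseudocount and over genes above 0. A filter of at least 1 FPKM could hardly remove a graded gene. Under quantile normalization A1d replicate 1 lay between in 60 rising genes (48 before) and 62 falling genes (46 before). The 113 also include the A1d positions with an A1d replicate left out, which could hardly exceed their spread. Depth limits the genes at 0, and the A1d level rests on 2 libraries.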
